A study of Mus musculus with 4 samples.

Results

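Binding sites of the glucocorticoid receptor (GR) that lie in the second or a later intron of a transcript, outside annotated repeats, make up 1811 of the 10402 peaks (17.4%) called in PDGFRa+ adipose progenitors. They were chosen from the deposited annotation alone: autosomal peaks whose annotation names an intron with a number of 2 or more, and whose detailed annotation does not name a repeat. The peaks' heights did not enter the choice. The study immunoprecipitated GR from 2 kinds of C57BL/6 mouse adipose progenitors, those carrying PDGFRa, which binds platelet-derived growth factor and marks fat cell progenitors, and those carrying CD137, a receptor of the tumour necrosis factor family. The 4 groups were the GR immunoprecipitate of PDGFRa+ cells, its input, the GR immunoprecipitate of CD137+ cells and its input, each with 1 library. All 4 were made from cells put through an adipogenic cocktail and given 1 µM dexamethasone, a synthetic glucocorticoid, so no library shows GR without the hormone. Magnetic sorting isolated the cells, and the labels do not say which of the SAT and VAT depots gave which cells. Each group had 1 library and the depth is unknown, so no difference has a replicate check, and the 95% intervals given here cover counting error only.

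GR is a nuclear receptor that stays in the cytoplasm until a glucocorticoid binds it, then enters the nucleus, binds DNA and recruits coactivators or corepressors. Much of its binding is known to fall far from gene starts, in introns and between genes, where enhancers lie. An enhancer inside an intron may act on the gene that contains it or on a neighbour, and in fat cell progenitors GR acts early in adipogenesis, with the factors of the C/EBP family. Which gene a site acts on was not measured here: the list gives for each peak the intron it lies in and the gene with the nearest start.

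The gene that holds a later intron and the gene with the nearest start were often not the same, and microRNA genes inside long host genes were one source of such pairs. For 83 members the nearest start belonged to 1 of 64 microRNA genes, and 75 of the 83 had that microRNA gene inside the host gene itself. Among these 75, the member lay within 20 kb of the microRNA start in 27 cases, for 27 microRNA genes, a limit chosen after the values were seen. RefSeq gave 37 mature sequences for 24 of these genes, and the 37 had 37 different seeds, so none shared a seed with another. The following mature sequences belong to the microRNA closest to a member of score 50 or more and to better-known microRNAs, each 5′ to 3′ with the seed, bases 2 to 8, in capitals. They come from RefSeq on GRCm38.p6.
mmu-miR-7656-5p: uGUGGGAUcagauagccuguua
mmu-miR-7656-3p: aCAGGCUGucugaucccacggu
mmu-miR-582-5p: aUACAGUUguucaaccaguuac
mmu-miR-582-3p: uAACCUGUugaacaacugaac
mmu-miR-139-5p: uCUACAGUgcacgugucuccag
mmu-miR-128-3p: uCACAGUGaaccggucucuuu
mmu-miR-140-3p: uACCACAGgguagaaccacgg

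Mir7656 lies inside Slc9a9, a sodium/proton exchanger of endosomes, and the peak in intron 4 of 15 was 1009 bp upstream of the microRNA start, with a score of 53. Slc9a9 held 2 more members, with scores of 33 and 26. Mir582 lies inside Pde4d, a phosphodiesterase that breaks down cAMP. All 3 Pde4d members were in intron 3 of 16 with Mir582 as the nearest start: the scores were 58 at 280752 bp, 49 at 4298 bp and 38 at 205307 bp upstream of it. The highest of the 3 was thus the one farthest from the microRNA. Mir139 lies inside Pde2a, a phosphodiesterase stimulated by cGMP, and the Pde2a member 5237 bp upstream of Mir139 had a score of 49. Its neighbour in the same intron 3 of 31 had a score of 67 and was 7507 bp from the nearest Pde2a start. Mir128-1, which gives the brain-enriched miR-128, lies inside R3hdm1, whose member in intron 14 of 26 had a score of 33 at 18491 bp upstream. Mir140, known for its role in cartilage, lies inside the ubiquitin ligase gene Wwp2, and the member in intron 9 of 23 had a score of 33 at 17634 bp upstream. RNA was not measured here.

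The list held 3878 intron peaks, 30 of them on the X or Y chromosome. Later introns on the autosomes held 2698, of which 32.9% (31.1% to 34.7%) lay in repeats, against 31.4% (28.8% to 34.1%) of first-intron peaks and 45.6% (44.3% to 46.9%) of intergenic peaks. Outside repeats this left the 1811 members, set here against 789 peaks in first introns and 3060 between genes. Another 12 later-intron peaks outside repeats were on the sex chromosomes and are not members. A host gene, meaning the gene of the transcript whose intron is named, was found for all members except 1, and 1 other member in Wdr59 had no nearest gene. The share of a chromosome's peaks that were members ran from 13.1% on chromosome 3 (84 of 640 peaks, 10.7% to 16%) to 21.5% on chromosome 15 (99 of 460 peaks, 18.0% to 25.5%).

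The heights of later-intron peaks overlapped widely with those of the other peaks. The score is a whole number from 20 upwards on a scale that the authors' file does not state, and it is used here only to rank peaks within the list. Members ran from 20 to 153, with a median of 33 (33 to 38) and quartiles of 33 and 41, against a median of 37 (33 to 40) in first introns and 35 (33 to 37) between genes. A score of 50 or more was reached by 119 members (6.57%, 5.52% to 7.81%), by 54 first-intron peaks (6.84%, 5.28% to 8.82%) and by 232 intergenic peaks (7.58%, 6.70% to 8.57%). These 3 intervals overlap. In the whole list, which also holds repeats and promoters, 924 peaks (8.88%, 8.35% to 9.44%) reached it, an interval above that of the members. Scores clumped: 475 members had exactly 33, 374 had 41, 253 had 49, 218 had 26 and 88 had 25, and these 5 values held 77.7% of the members. The order of members within such a tie is therefore unknown. The least width of 146 bp was seen in 75.6% of members (73.6% to 77.5%), in 71.7% of first-intron peaks (68.5% to 74.8%) and in 71.9% of the whole list. The widest member spanned 538 bp.

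Later-intron peaks lay farther from gene starts than first-intron peaks and nearer than intergenic ones. The median distance to the nearest start was 44986 bp (41730 to 47988) for members, 11319 bp (9423 to 12949) for first-intron peaks and 77556.5 bp for intergenic peaks. Within 10 kb of a start lay 262 members (14.5%, 12.9% to 16.2%), 372 first-intron peaks (47.1%, 43.7% to 50.6%) and 12% of the intergenic peaks. Beyond 100 kb lay 488 members (26.9%, 25% to 29%), 85 first-intron peaks (10.8%, 8.80% to 13.1%) and 44.6% of intergenic peaks. Position in a later intron itself implies some distance from that transcript's own start. Of the members, 2 lay in a CpG island.

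Within the transcripts, members leaned to the early side of the later introns. The median member was in intron 5 of a transcript with 14 introns, and the transcripts ran from 2 to 312 introns. Intron 2 held 411 members (22.7%), intron 3 held 277 (15.3%), introns 4 and 5 held 346 (19.1%), introns 6 to 10 held 360 (19.9%), introns 11 to 20 held 261 (14.4%) and introns beyond 20 held 156 (8.61%). Among the 1776 members in transcripts with at least 3 introns, 873 (49.2%, 46.8% to 51.5%) were in the first part of the later introns when these are ranked and cut into 3 equal parts, and 454 (25.6%, 23.6% to 27.6%) were in the last part. Equal weight for each later intron would give 33.7% in each of these 2 parts. Intron lengths were not taken into account, so a greater length of early introns was not tested. The last intron of the transcript held 200 members (11%, 9.68% to 12.6%).

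**Figure D1:**
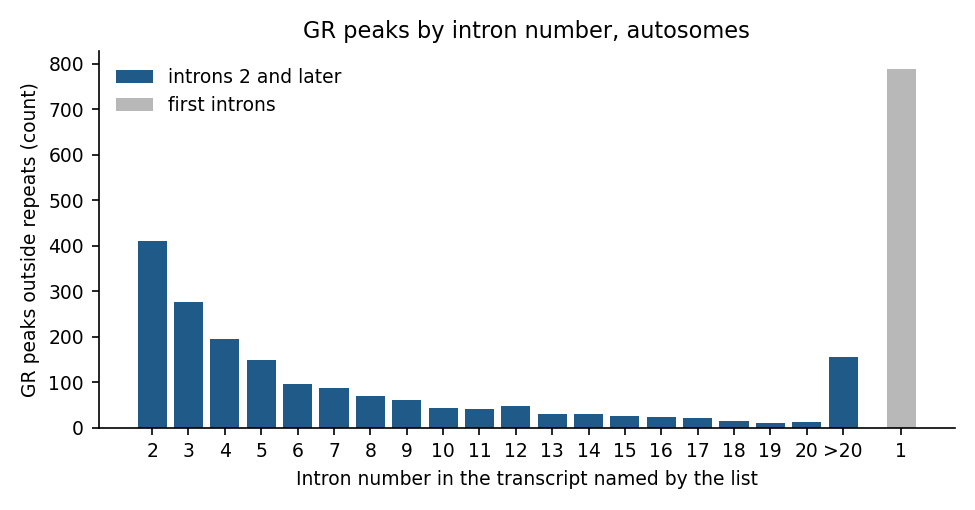
Count of GR peaks outside repeats on the autosomes by the number of the intron they lie in, with introns 2 and later in blue and first introns in grey. Bars fall from 411 peaks in intron 2 to 277 in intron 3, the introns beyond 20 together hold 156, and first introns hold 789.

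The farther along the transcript a member lay, the more often another gene's start was the nearest. In intron 2 the nearest start belonged to another gene for 71 members (17.3%, 13.9% to 21.2%), in intron 3 for 67 (24.2%, 19.5% to 29.6%), in introns 4 and 5 for 128 (37.0%), in introns 6 to 10 for 153 (42.5%), in introns 11 to 20 for 137 (52.5%) and beyond intron 20 for 112 (71.8%, 64.3% to 78.3%). The share in the last intron was 49.5% (42.6% to 56.4%), against 35.3% (33% to 37.7%) in all other later introns. Whether distance along the gene gives this order was not tested. The share of members with a score of 50 or more did not follow this order: it was 4.87% (3.17% to 7.40%) in intron 2, 8.30% (5.6% to 12.2%) in intron 3, 4.44% (2.75% to 7.10%) in introns 6 to 10 and 14.1% (9.50% to 20.4%) beyond intron 20. The 22 such members beyond intron 20 were in 19 host genes, and 4 of them were in Snhg14, a long RNA gene described further on. Without Snhg14 the share was 18 of 152 (11.8%, 7.62% to 17.9%). Others of the 22 were in Col11a1, a chain of type XI collagen, with a score of 71 in intron 57 of 66, in the cell polarity gene Pard3 with 67 and in the lipoprotein receptor gene Lrp1 with 53. The muscle gene Ttn held the members farthest along any transcript, in introns 206 and 256 of 312, both with a score of 33 and both nearest to Plekha3.

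**Figure D2:**
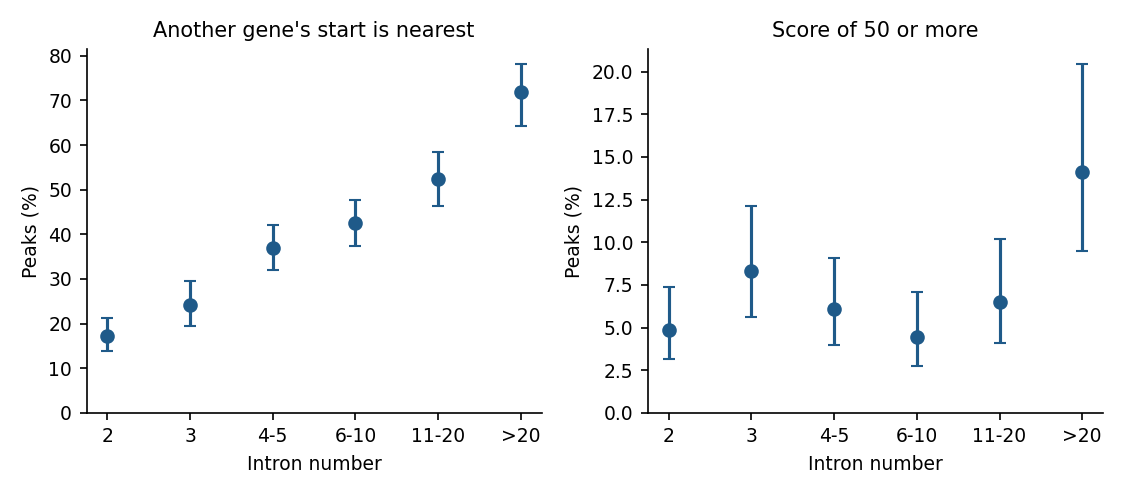
Later-intron GR peaks by intron number, with the percentage nearest to another gene's start on the left and the percentage with a score of 50 or more on the right; bars are 95% Wilson intervals. The left panel climbs from 17.3% in intron 2 to 71.8% beyond intron 20, and the right panel lies between 4.44% and 8.30% up to intron 20 and at 14.1% beyond it.

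In all, the nearest start belonged to another gene than the host for 668 members (36.9%, 34.7% to 39.1%), against 63 first-intron peaks (7.98%, 6.29% to 10.1%). Later-intron peaks in repeats had almost the same share as the members, 37.2% (34.1% to 40.4%). The other gene lay outside the host for 380 of the 668 (56.9%), inside it for 204 (30.5%) and overlapped it for 74 (11.1%). For 4 the other gene or its host was missing from the gene table, and for 6 the other gene was listed on another chromosome than the host. It was protein-coding for 413 (61.8%) and a non-coding RNA gene for 231 (34.6%), the microRNA genes among them. Members with another nearest gene had a median distance of 55731 bp (46626 to 60289) and a median host length of 205540 bp. Members nearest to their own host had 40938 bp (37205 to 44848) and 128336 bp. The shares with a score of 50 or more were 7.34% and 6.13%. Of the 1141 members nearest to their own host, 90 (7.89%) lay upstream of the nearest start of that gene, as they can where a longer transcript begins earlier.

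Several of the highest members lay in one gene while the nearest start was that of another. The member of score 77 in intron 13 of 16 of Lmbr1l was 7802 bp upstream of Dhh, which encodes the secreted signal Desert hedgehog. The member of score 76 in the last of 14 introns of Ggcx, the vitamin K-dependent carboxylase, was 8995 bp upstream of the RNA gene Particl. The member of score 75 in intron 9 of 19 of Atp6v0a2, a proton pump subunit, was 14778 bp upstream of the dynein gene Dnah10. Scores of 67 were given in the last of 10 introns of the ceramide synthase gene Cers6, 27505 bp upstream of Nostrin, and in the last of 10 introns of Cpb2, 2866 bp upstream of Zc3h13. In Efcab14, the member of score 67 in intron 9 of 11 was 14748 bp downstream of the start of Tex38. In the transcription factor gene Glis3, the member of score 67 was 294239 bp upstream of Rfx3, a factor needed for cilia. In Lrba, the member of score 67 in intron 44 of 50 was 87809 bp upstream of Mab21l2, an eye development gene that sits inside Lrba. In Ehbp1 the member of score 58 was 39207 bp upstream of the homeobox gene Otx1. In Myo3b the member of score 58 was 138610 bp upstream of Sp5, a target of Wnt signalling.

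Genes of the lists used here were also the nearest gene of 19 members in other hosts, for 17 listed genes. Nr3c1 encodes GR, and its start was the closest to a member in the last of 22 introns of Arhgap26, a GTPase-activating protein, which had a score of 38 and lay 118063 bp downstream of that start (chr18:39528753-39528919 as deposited). Cebpd, an early adipogenic factor known to respond to glucocorticoids, was nearest to a member in intron 9 of 18 of Spidr, at 61169 bp with a score of 38. Foxo3, a transcription factor downstream of insulin, was nearest to a member in Afg1l, 47216 bp upstream with a score of 41. Tgfbr1, a receptor for TGF-beta, was nearest to 3 members in the collagen gene Col15a1, which had scores of 33, 33 and 25 and lay 66866, 65503 and 58243 bp upstream. The Wnt ligand gene Wnt5a was nearest to a member of score 33 in Erc2, and Wnt5b to a member of score 33 in Erc1, at 337242 and 80676 bp upstream. Fzd1, a Wnt receptor, was nearest to a member of score 37 in Cdk14 at 135081 bp upstream. Nrp2, a receptor for semaphorins and VEGF, was nearest to a member of score 38 in Pard3b, 137170 bp upstream, besides the member inside Nrp2 itself.

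Genes of 100 kb or more held most of the later-intron peaks, with a somewhat higher density per Mb of gene length than genes of 10 to 30 kb. Of 20661 protein-coding autosomal genes of known length, 1338 (6.48%) held a member. The share was 0.559% under 10 kb (41 of 7341), 2.37% from 10 to 30 kb (145 of 6126), 8.36% from 30 to 100 kb (408 of 4882), 24.7% from 100 to 300 kb (440 of 1780) and 57.1% at 300 kb or more (304 of 532). The median length was 115138 bp for genes with a member and 15808 bp for genes without. Per Mb of gene length, the density differed far less. It was 1.36 (0.982 to 1.84), 1.30 (1.10 to 1.52), 1.66 (1.51 to 1.82), 1.85 (1.69 to 2.01) and 1.84 (1.69 to 2.0) members per Mb in the same 5 classes, and 1.72 (1.64 to 1.80) over all. First-intron peaks went the other way, with 1.17, 0.811, 0.786, 0.767 and 0.626 (0.540 to 0.722) per Mb in the same 5 classes. Gene length here includes exons and the first intron, so these are not densities per base of later intron.

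**Figure D3:**
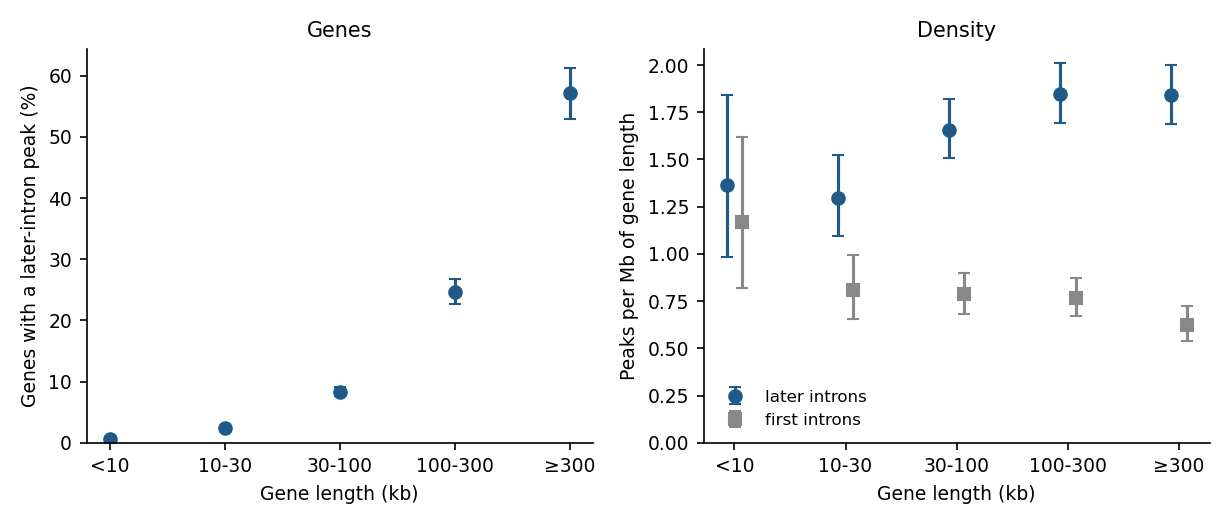
Protein-coding autosomal genes by length in GRCm38.p6, with the percentage that hold a later-intron GR peak on the left and the number of peaks per Mb of gene length on the right, for later introns (blue circles) and first introns (grey squares); bars are 95% Wilson and exact Poisson intervals. The percentage climbs to 57.1% at 300 kb or more, while the density of later-intron peaks lies between 1.30 and 1.85 per Mb.

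The members lay in 1414 host genes, of which 1338 (94.6%) were protein-coding and 69 (4.88%) long non-coding RNA genes. A single member was held by 1138 hosts (80.5%), and 276 hosts (19.5%) held 2 or more, with 672 members (37.1%) among them. A first-intron peak outside repeats was also seen in 133 hosts (9.41%), and a later-intron peak in a repeat in 229 (16.2%). A promoter peak had the host as its nearest gene in 14 hosts (0.990%). Protein-coding genes with a member had a median length of 115138 bp, against 15808 bp for those without. Matching shares were not counted over all genes or over genes of similar length. The shares among hosts are therefore not read as high or low.

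The 26 hosts with 4 or more members were long genes, the shortest being Sfi1 with 71498 bp, Col15a1 with 105513 bp and Tnrc6b with 229774 bp. Macrod2, a hydrolase acting on ADP-ribose, held the most, with 8 members of scores 26 to 49. For 5 of these 8 the nearest gene was Flrt3, an adhesion gene that lies inside Macrod2, and for 2 it was Kif16b. Celf2, an RNA-binding regulator of splicing, held 6 members, which had scores of 58, 49, 41, 41, 41 and 38. Adgrl3, an adhesion receptor, held 6 with a best score of 49, as did Dpyd, the enzyme that breaks down uracil and thymine. Ctnna2, a catenin of neurons, held 6 with scores of 25, 41, 41, 33, 26 and 26 in order along the chromosome. For the first 3 of them the nearest gene was Lrrtm1, a synaptic adhesion gene. Adgrl3 and Dpyd each had members at both ends: those near the end of Dpyd, in introns 18 and 19 of 22, were nearest to the splicing regulator Ptbp2, and those in introns 20 and 25 of Adgrl3 were nearest to an uncharacterised RNA gene. Fto, an RNA demethylase gene linked to body weight, held 4 members with scores of 33, 41, 49 and 41 in order along the chromosome. For the last 2, both in intron 8 of 8, the nearest gene was the transcription factor gene Irx3, at 236236 and 136015 bp downstream of its start. Eya4 held its 4 members within 36162 bp in introns 2 and 3, with scores of 33, 26, 49 and 33.

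Further hosts with 4 or 5 members follow. Lsamp, an adhesion protein of neurons, held 5 with scores of 33, 41, 33, 33 and 33, the first 4 in intron 2 of 10 and nearest to Lsamp itself. Nckap5 held 5 with scores of 33, 41, 26, 41 and 26, and the first of these was nearest to Lypd1. Grik2, a kainate-type glutamate receptor, held 5 members with scores of 33, 41, 49, 26 and 26, all nearest to Grik2 itself and from 181434 to 625359 bp from its start. Npas3, a transcription factor with a PAS domain, held 5 with scores of 33, 49, 26, 33 and 33, and the last of these was nearest to Egln3, a prolyl hydroxylase of the hypoxia pathway. Glis3 held 4 with scores of 67, 33, 33 and 41, and none was nearest to Glis3: after the one upstream of Rfx3, the other 3 were all in intron 4 of 10 and nearest to D930032P07Rik. Dlg2, a scaffold of synapses, held 4 with scores of 58, 41, 31 and 41, all nearest to a start of Dlg2. Pcdh15, a protocadherin of hair cells, held 4 with scores of 58, 33, 41 and 26, the first 2 of them both in intron 12 of 31. Gabrg3, a GABA receptor subunit, held 4 with scores of 49, 49, 41 and 41, in introns 5 and 3 of 9. Epha3, an ephrin receptor, held 4 with scores of 33, 33, 33 and 26, from 24008 to 297309 bp from its start. Best scores of hosts with 4 or more members ran from 33 in Col15a1, Epha3, Grm8 and Nbea to 67 in Glis3, with Snhg14 apart at 153.

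Hosts differed in how closely the members were packed. Macrod2 had 0.400 members per 100 kb of gene length. Col15a1, a collagen of basement membrane zones, had 3.79 per 100 kb, with 4 members of scores 31, 33, 33 and 25. Sfi1, a centrosome gene, had 9.79 per 100 kb, with 7 members of scores 26 to 40 within 50261 bp, and for 3 of them the nearest gene was the pseudogene Pisd-ps3. Snhg14, the host RNA of imprinted small nucleolar RNAs, held 5 members with scores of 69, 153, 69, 147 and 41. The first 4 of these had Snord116 or Snord116l2 as the nearest gene. Snord116 is a cluster of near-identical tandem copies, so reads cannot be placed there with certainty and these 4 scores are uncertain. Sfi1 was grouped with Snhg14 as multicopy, so its scores and its packing are uncertain too. Pisd-ps3 was itself the host of 3 members, and its listed gene length of 7016 bp would give 42.8 per 100 kb. The host was listed on the peak's chromosome for 1806 of 1809 members. Whether the Pisd-ps3 peaks are among the exceptions was not checked, so its length and packing are uncertain too. Without the 12 members in Snhg14 and Sfi1, 1799 members remained.

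**Figure D4:**
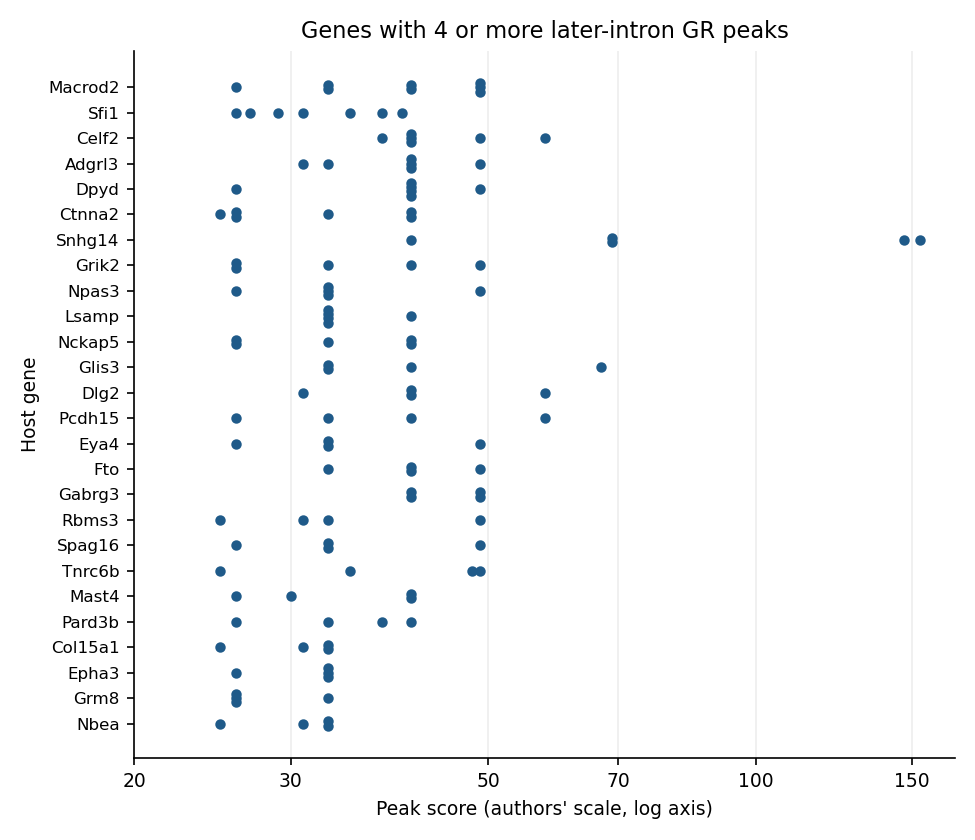
Score of each later-intron GR peak (authors' scale, log axis) in the 26 genes that hold 4 or more, 1 point per peak and 1 row per gene, ordered by number of peaks. Macrod2 holds 8 points between 26 and 49, and the points of Snhg14 at 147 and 153 stand to the right of all others.

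Apart from Snhg14, the member of highest score was in Fmn1, a formin that nucleates actin filaments. It had a score of 97 in intron 3 of 16 and lay 55929 bp from the start (chr2:113337022-113337279 as deposited), and a second member of score 49 began 1872 bp before it. Next came 4 hosts with a score of 77: Lmbr1l, Mbnl2, Nrp2 and Tns1. Mbnl2, a splicing regulator, had its member in intron 2 of 8 at 54150 bp (chr14:120759745-120759904). Nrp2 had its member in intron 3 of 16 at 38714 bp (chr1:62788499-62788712). Tns1, which links actin to integrins at focal adhesions, had its member in intron 4 of 32 at 109613 bp (chr1:74061318-74061499), and a further member of score 33 in a later intron. Scores of 67 were given in the adhesion receptor gene Adgrl2, in Cadps, which primes secretory vesicles, in the calmodulin kinase gene Camk2d, in the translation factor gene Eif5b and in Elmo1, an activator of Rac. In all, 37 members had a score of 60 or more, 34 of 67 or more and 2 of 100 or more. Of the 20 hosts with the highest members, 7 had another gene as the nearest, a share close to the 36.9% of all members. The choice of the 20 cuts a tie: 22 members had a score of 67, and the 11 that complete the 20 came first in alphabetical order.

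Members seldom lay side by side. Another member was within 10 kb of 87 members (4.80%, 3.91% to 5.89%) and within 50 kb of 319 (17.6%). The 48 neighbouring pairs within 10 kb were in the same host in 46 cases and in the same intron in 27. In 12 pairs both peaks had a score of 41 or more. Besides the pairs of Snhg14, Fmn1 and Pde2a, these included Exoc1, a subunit of the exocyst, with scores of 49 and 41 in intron 10 and starts 1064 bp apart, and Mcc, a gene mutated in colorectal cancers, with 41 and 58 in intron 15 and starts 1606 bp apart.

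For the lists of pathway genes, 161 of 588 listed genes held a member as the host, and 115 had one when counted by the nearest start. For some members named below the nearest start was thus another gene's. The best members of Akap13, Vav2, Lrp1b, Tgfbr3, Cry1, Ncoa2 and Ebf3 were nearest to Klhl25, Sardh, Ppp6c, Cdc7, Mterf2, Prdm14 and Gm10578. Those of Mtor and Pik3cb were nearest to Exosc10 and Gm1123, and no member of Loxl2 or Lama2 was nearest to its host. The best members of Sema5a, Med13l, Adamts12, Itga8, Acvr2a and Tcf7l1 were nearest to Gm41289, 4930413E15Rik, Tars, E030013I19Rik, Orc4 and Gm15401. Those of Prdm16, Tet3, Fgf14, Map3k5 and Agpat3 were nearest to Gm13133, Mir6374, 1700024B18Rik, Map7 and Trappc10. Lists are described by the number of genes with a member and by members per Mb of gene length, set beside 6.48% of genes and 1.72 members per Mb over all protein-coding genes; the median length of the listed genes was above the 17491 bp of all genes in each of the 18 lists, so the density is the closer comparison. Genes known to respond to glucocorticoids gave 4 of 32 with a member (12.5%) and 2.90 members per Mb (0.943 to 6.78), an interval that includes 1.72. Sgk1, a kinase induced by glucocorticoids, held 2 members in intron 2 of 13 of a long transcript, with scores of 49 and 26, at 41730 and 41382 bp upstream of the nearest Sgk1 start (the first at chr10:21656673-21656823). Zbtb16, a zinc-finger factor strongly induced by glucocorticoids, held 1 of score 38 in intron 3 of 6, at 98387 bp. Cry1, a repressor of the circadian clock that also binds GR, held 1 of score 37 in intron 2 of 12. Hsd11b1, the enzyme that regenerates active glucocorticoid inside cells, held 1 of score 30 in the last of 5 introns, at 20075 bp. Nr3c1 itself held none.

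Genes of the receptor's cofactors and of fat cell formation came next. Among nuclear receptor coregulators 5 of 20 held a member (2.48 per Mb, 0.998 to 5.11), among them Smarca2, an ATPase of the SWI/SNF complex, with 49, Ep300, a histone acetyltransferase, with 45, and the Mediator subunit Med13l and the coactivator Ncoa2 with best scores of 41. Among adipogenic transcription factors 11 of 33 held one (2.42 per Mb, 1.35 to 3.99), an interval that includes 1.72. Of the 8 genes of 300 kb or more, 6 held one (75%), against 57.1% of all genes of that length. Lengths within that class were not compared. All 11 genes with a member were among the 19 of 100 kb or more. They included Zfp521, which holds back adipogenesis, with a score of 58 in intron 2 of 7 at 7171 bp, the forkhead genes Foxp1 and Foxp2 with 2 members each and a best score of 49, Ebf3 with 41 and the brown fat regulator Prdm16 with 33. None of 25 markers of adipose progenitors and stroma held one, Pdgfra included, where a count of 0 allows, at 3 counts, up to 12% of the genes, and the Poisson interval reaches 3.16 members per Mb. Both limits are above the values over all genes. Of the markers of other cells the tissue could hold, 1 of 7 endothelial, 0 of 7 immune and 0 of 6 mesothelial genes held a member. The endothelial gene was Pecam1 with a score of 25. A peak in a gene says nothing of whether that gene is expressed, so these lists do not test the purity of the cells.

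The title of the series names Tead1, a transcription factor at the end of the Hippo pathway. Tead1 held no member. In the Hippo and TEAD list 7 of 29 genes held one (2.63 per Mb, 1.14 to 5.19). Yap1, the coactivator that TEAD factors bind, held 2: one of score 49 in intron 2 of 8 at 24283 bp and one of score 41 in intron 3 at 37207 bp. Vgll3, another TEAD partner, held 1 of score 49 in the last of 3 introns at 44325 bp. The kinase activator Mob1b held 1 of score 49 in the last of 5 introns, where the nearest gene was Dck, and the kinase gene Taok1 held 1 of score 38. The title also speaks of methylation. Of the genes of chromatin and DNA methylation enzymes 11 of 35 held a member (3.39 per Mb, 1.97 to 5.43), an interval that lies above 1.72. Of the 35 genes, 15 were of 100 kb or more, and the interval overlaps the 1.69 to 2.01 of all genes of 100 to 300 kb. It is also 1 of 18 intervals looked at, and it counts several peaks in the same gene as independent. Tet1 and Tet3 oxidise methylated cytosine: Tet1 held a member of score 49 in intron 3 of 12 at 36172 bp, and Tet3 held one of score 33. Smyd3, a lysine methyltransferase, held 3 with a best score of 49, the deacetylase gene Hdac9 held 3 with a best score of 41, and Hdac4 held 1 of score 41. Methylation was not analysed here.

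Among signalling lists, the densities were spread around the value over all genes with wide intervals. TGF-beta and BMP signalling gave 7 of 29 (2.52 per Mb, 1.01 to 5.19), led by the coreceptor Tgfbr3 with 49 in intron 14 of 16, the BMP receptor Acvr1 with 41, the inhibitor Smad6 with 41 and the activin receptor Acvr2a with 33. Wnt signalling gave 5 of 36 (2.32 per Mb, 0.934 to 4.79), led by Prickle2, a planar polarity gene, with 3 members of scores 41, 49 and 37 in intron 2 of 8, the receptor Fzd6 with 41, the factor Tcf7l1 with 33 and the secreted Rspo2 with 26. Insulin and IGF signalling gave 3 of 30 (1.03 per Mb, 0.212 to 3.0), led by the kinase genes Mtor and Pik3cb with 41. The genes of cAMP turnover gave 10 of 31 (1.91 per Mb, 1.04 to 3.20), led by the cyclase Adcy8, the kinase anchor Akap13 and Pde4d, each with 58, and followed by Pde10a with 41. Receptor tyrosine kinase and MAP kinase genes gave 6 of 46 (1.53 per Mb, 0.663 to 3.02), led by Fgf12 with 49, the kinase Map4k4 with 41, and Fgf14 and Map3k5 with 33.

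Among genes of the matrix, of adhesion and of the cytoskeleton, 1 of the 3 lists had a density whose interval lay above 1.72 per Mb. Extracellular matrix and integrin genes gave 14 of 40 and 3.28 per Mb (2.0 to 5.06), the one above it. Of the 40 genes, 26 were of 100 kb or more, and the interval overlaps the 1.69 to 2.01 of all genes of 100 to 300 kb. It also counts peaks in the same gene, such as the 4 of Col15a1, as independent. Col11a1 led with 71 (chr3:113906922-113907067), followed by Loxl2, an enzyme that cross-links collagen, with 2 members and a best score of 49, the laminin gene Lama2 with 3 members and a best score of 45, the protease Adamts12 with 41, and the integrin genes Itga8 with 41 and Itgb5 with 40. Cell adhesion and guidance genes gave 25 of 38 and 2.27 per Mb (1.69 to 2.98), an interval that includes 1.72, led by Nrp2 with 77, Adgrl2 with 67, the semaphorin gene Sema5a with 58 and Adgrl3 with 49. Of the 26 genes of this list with 300 kb or more, 21 held a member (80.8%), against 57.1% of all genes of that length. Lengths within that open class were not compared, so 80.8% is not read as high. Regulators of the actin cytoskeleton gave 17 of 41 and 2.04 per Mb (1.33 to 2.99), which also includes it, led by Tns1 with 77, Elmo1 with 67, the exchange factor Vav2 with 58 and the actin-binding Cald1 with 49.

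The list of synaptic and neuronal genes had the highest share of genes with a member and one of the lower densities. It gave 31 of 45 genes (68.9%), and all 45 were of 300 kb or more, where 57.1% of all genes held a member. Per Mb it had 1.38 (1.06 to 1.76), a value below the 1.84 (1.69 to 2.0) of all genes of that length, with intervals that overlap. Dlgap2, a scaffold of the postsynaptic density, led with 67 in intron 3 of 15, followed by Dlg2, the lipoprotein receptor Lrp1b and the phosphatase Ptprd with 58 each. The lists of lipid, inflammation and clock genes, whose genes are shorter, had few members. Lipid metabolism and adipokine genes gave 5 of 39 (2.42 per Mb, 0.784 to 5.64), led by Abhd5, an activator of triglyceride lipase, with 58 in intron 2 of 5 at 17490 bp, and the lipid synthesis enzymes Acaca, Agpat3 and Lpin2 with 33. Inflammation genes gave 3 of 37 (2.81 per Mb, 0.767 to 7.2), led by the cytokine receptor Lifr and the nitric oxide synthase Nos2 with 33. Circadian clock genes gave 2 of 24 (1.09 per Mb, 0.132 to 3.93), Cry1 with 37 and the nuclear receptor Rora with 33. The 18 lists share some genes, and none was chosen apart from earlier results of these data.

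**Figure D5:**
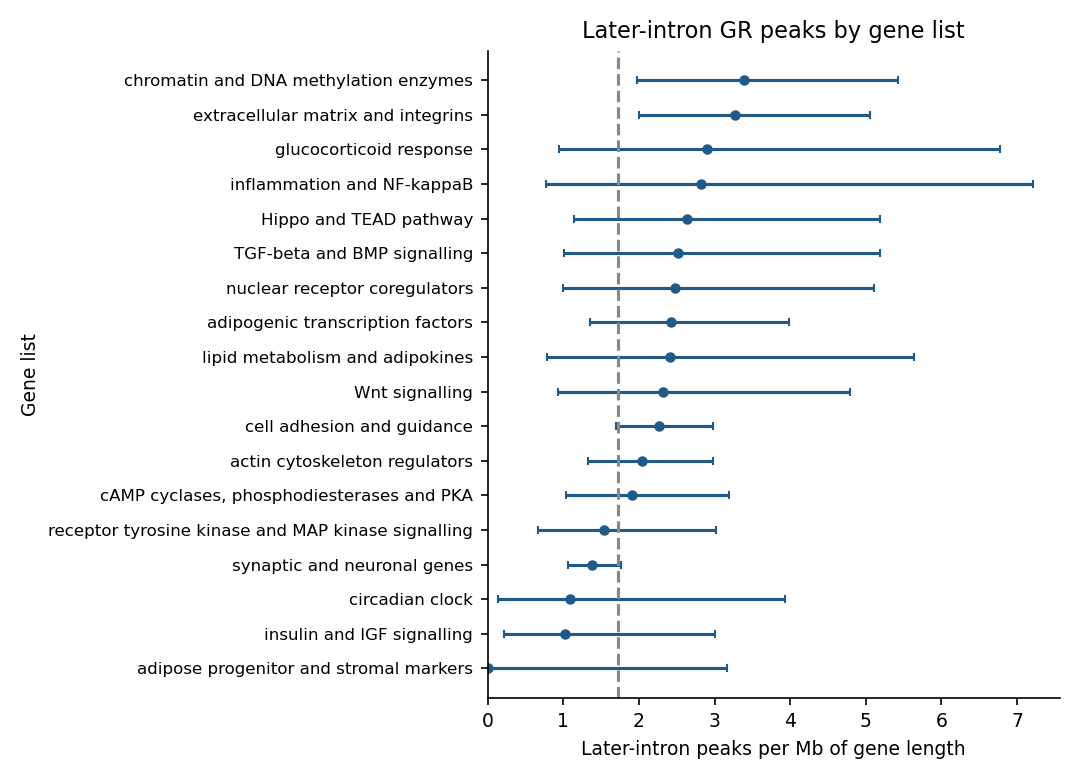
Later-intron GR peaks per Mb of gene length in the 18 gene lists, with exact 95% Poisson intervals; the dashed line marks 1.72 per Mb over all protein-coding autosomal genes. The chromatin and matrix lists have intervals that lie wholly to the right of the line, and the progenitor and stromal list is at 0. Both of these intervals to the right overlap the 1.69 to 2.01 per Mb of all genes of 100 to 300 kb.

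In CD137+ cells the authors' table gave 23 called intervals near 30 genes, and 16 of these genes had an interval inside. The table also holds intervals of another library, and only those named for CD137 were used here. Of the 16, 6 held a later-intron member in PDGFRa+ cells: Tns1, Zhx3, Apbb2, Foxp1, Tenm4 and Zbtb16. All 6 are of 100 kb or more, a length at which 32.2% of all genes held a member, and Apbb2 (320340 bp), Foxp1 (597405 bp) and Tenm4 (739850 bp) are in the class where 57.1% did, so the count is not read against the 6.48% of all genes. The lengths of the rest of the 16 genes were not compared, so 6 of 16 has no background of matched length and is not read as high or low. The 2 tables use different coordinates, so positions were compared by the distance to the start of the same gene. In Tns1 the member of score 77 was 109613 bp from the start, and a CD137+ interval with a deposited mean peak value of 42 was 109695 bp from it, a difference of 82 bp. In Zhx3, a zinc-finger and homeobox repressor, the member of score 40 in intron 2 of 3 was at 67688 bp, and a CD137+ interval with a mean value of 40 was at 67678 bp, a difference of 10 bp. For the Tenm4 members the list gives distances to other genes only, so no comparison was possible there. The members of Apbb2, Foxp1 and Zbtb16 had no CD137+ interval within 500 bp of their stated distance. The list measures from 1 of several starts of such a gene, so a site measured from another start in the other table would not be found. Apbb2 held members of 58 and 32, Foxp1 of 49 and 41, the adhesion gene Tenm4 of 49, 41 and 33, and Zbtb16 of 38. The values of the 2 tables are on different scales, and with 1 library for each cell type the sharing has no replicate check.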

How the data were processed

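GR chromatin immunoprecipitates and inputs of 2 progenitor types were sequenced, with 1 library per group; depth is unknown. Per the submitters' processing notes, bedtools 2.17.0, SAMtools, MACS2, Bowtie2, FastQC and the build mm10 were used; no role is given, and the sources used here give no settings. The extraction protocol in the labels speaks of embryonic cells, which does not match the adipose source. The deposited peak score of the PDGFRa+ list is a whole number on an unstated scale, and its column layout is that of HOMER, a tool the header leaves unnamed. The deposited CD137+ peak value is a signal of unstated unit, the mean over a gene's intervals, per the file headers.

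Peaks were classified from the deposited annotation; 3 fields in the detailed annotation mark a repeat. Where several transcripts overlap, the list names 1, and its intron number was used. Transcripts were paired with host genes, lengths and microRNAs through the RefSeq table of GRCm38.p6 (1807 members) or the list's own pairs (3). Peak starts lay inside the host's GRCm38.p6 span for 533 of 1809 members (29.5%), and for 78 of 83 on chromosome 16 (94.0%), so the list is on another build; its coordinates are printed as deposited and no peak sequence or motif was analysed here. Intervals are 95% Wilson for shares, exact Poisson for densities and binomial order statistics for medians (Python 3.11.15, pandas 2.3.3, scipy 1.17.1). No test was made. Classification and neighbour counts were tested on simulated data.

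Named genes are the 20 hosts of the highest-scoring members, up to 12 hosts with the most members (at least 4), up to 4 genes per list by best score, and Tead1, Pdgfra, Nr3c1 and the CD137+ genes; other names were chosen after their values were seen, and some are not reported here. The members, lists and rules were chosen with earlier results of these data known. Alternatives were a score of 50 or more, introns from 3 on, repeats kept, the X chromosome, genes counted by the nearest start, other windows, and Snhg14 and Sfi1 left out. No paired analysis was possible because each group has 1 library.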

Additional observations from a re-analysis of the deposited data

How the results depend on the processing

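Of 37 values recomputed under alternatives, 22 stayed within 1.5 times the reported count or within the counting interval and 15 did not. With a score of 50 or more, 119 members were left, with a median score of 58, a median distance of 33983 bp, 41.2% nearest to another gene, 108 protein-coding host genes, 16 listed genes, 3 members within 10 kb of another and 1 interval shared with CD137+ cells. From intron 3 on, the median distance was 48285 bp, the share nearest to another gene 42.6% and the shared intervals 1, since Zhx3 was in intron 2. With repeats kept, 166 members had another within 10 kb. Members nearest to their own host had a median distance of 40938 bp. At 5 kb, 53 members had a neighbour, and at 50 kb 319. Without Snhg14 and Sfi1, an alternative chosen after seeing the data, 77 members had a neighbour within 10 kb and 36.7% were nearest to another gene. Counted by nearest start, 1246 genes and 115 listed genes had a member. The causes of the other changes were not tested. No paired analysis was possible because each group has 1 library.

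The depth of the library and the scale of the score are unknown, the input was not analysed here, and a peak near the lowest score of 20 cannot be told from one just below the authors' threshold. With 1 library, the spread between cultures is unknown.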

Other observations

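Long non-coding RNA genes held a small set of members. The 80 members in 69 such hosts had a median score of 40, and 9 of them (11.3%, 6.03% to 20.02%) had a score of 50 or more, against 6.57% of all members, a value inside that interval. Of the 9, 4 were in Snhg14, where tandem copies make placement uncertain. The other 5 were in 4921531P14Rik and C130026L21Rik with 67, Nkx2-2os, an RNA antisense to the homeobox gene Nkx2-2, with 58, and 1700008C04Rik and 4930474H20Rik with 57.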
